A study of Mus musculus with 6 samples.

Results

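Experiment 2 of a study of mouse T cells cultured towards a regulatory T cell (Treg) fate is described here across all measured genes and set against experiments 1 and 3. It holds 2 of the 6 arrays, 1 control and 1 E47, and the other 4 arrays come from experiments 1 and 3. Experiment 2 was chosen because it stood apart in these same data: Foxp3, Gpr83, Sgk1, Itih5 and Ifitm3 were high on its 2 arrays, and Il9 and Pdpn were low. The members were thus selected on measured values, so every difference between experiment 2 and the others is a description and carries no test. Tests are given for 2 further questions: whether the effect of E47 differed in experiment 2, and how far apart experiments 1 and 3 were. Experiments 1 and 3 are the pair left by the choice of experiment 2, which favours a small difference between them.

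All cells were CD4+CD25- T cells, isolated with magnetic beads from lymph nodes of C57BL/6 mice. They were stimulated on plates coated with antibodies to CD3 (2 µg/ml) and CD28 (1 µg/ml), for 2 days in medium with TGF-β1 at 5 ng/ml and IL-2 at 200 U/ml. A retrovirus (pMIT) was added on day 1. It carried E47-ER in the E47 cultures and a construct named bHLH-ER in the control cultures. ER is the estrogen receptor domain that tamoxifen releases into the nucleus, and the labels name the bHLH-ER control without saying what it encodes. Transduced cells of both groups were sorted as CD4+Thy1.1+ and restimulated through CD3 and CD28 for 6 hours with IL-2 and 1 µM tamoxifen. Mice were 7 weeks old in experiment 1, 8 weeks in experiment 2 and 9 weeks in experiment 3, and 3, 3 and 4 mice were pooled for each sample. Experiment, pool, age and whatever else differed between the days of culture cannot be told apart. The unit behind the comparison is 1 experiment against 2, for which the smallest exact permutation p is 0.33.

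Treg cells hold back immune responses, and Foxp3, an X-linked forkhead transcription factor, is needed for their identity. Naive CD4 T cells begin to transcribe Foxp3 when they are stimulated through their antigen receptor with TGF-β, which acts through Smad factors, and with IL-2, which acts through STAT5. The same starting cells can be turned by other cytokines to helper fates, among them IL-9-producing Th9 cells, which also need TGF-β, and IL-17-producing Th17 cells.

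Throughout, a level is the log2 of the deposited intensity, and a difference is experiment 2 minus experiments 1 and 3 on the log2 scale with construct as a term. The SE of such a difference comes from a fit that treats the 6 arrays as independent, so it does not measure the spread between experiments. Levels of different genes are not compared, because probe sets differ in their response. A gene is counted as called when the limma fit over all 18193 genes gave it a Benjamini-Hochberg adjusted p under 0.05, which serves here only to sort genes. The labelled cell type was checked first. All 7 measured CD4 T cell markers were above the median of all probe sets (5.12), and Cd4 had control levels of 8.21, 7.90 and 8.09 and E47 levels of 8.21, 8.00 and 8.04 in experiments 1 to 3. The 3′ minus 5′ difference of the actin control probe sets was 0.25 and 0.22 in experiment 2 and 0.21 to 0.29 on the other arrays. That of the Gapdh control probe sets was -0.12 and -0.15 in experiment 2 and -0.14 to -0.07 on the others, and array median intensities ranged from 34.3 to 35.4. The female-specific transcript Xist was between 12.11 and 12.72 on every array.

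Foxp3 had control levels of 6.42, 8.16 and 6.29 and E47 levels of 6.36, 7.83 and 6.07 in experiments 1 to 3. Both arrays of experiment 2 lay above the other 4, with a gap of 1.41. The means were 8.00 ± 0.23 (SD, n = 2 arrays) and 6.28 ± 0.15 (SD, n = 4 arrays), and each SD mixes control and E47. This is a difference of 1.71 (SE 0.11), or 3.28-fold. Gpr83, a G protein-coupled receptor abundant on Treg cells, had control levels of 7.56, 10.06 and 6.97 and E47 levels of 7.54, 9.61 and 6.70, a difference of 2.64 (SE 0.25) or 6.24-fold. The groups did not overlap, and its 2 probe sets gave differences of 2.64 and 2.69.

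Sgk1, a kinase controlled by salt, glucocorticoids and growth factor signalling, had control levels of 8.87, 10.89 and 8.28 and E47 levels of 9.62, 11.66 and 8.72. It was high in experiment 2 with both constructs, with a difference of 2.40 (SE 0.26). Itih5, which encodes a secreted protein that binds hyaluronan in the extracellular matrix, had control levels of 6.90, 9.24 and 5.37 and E47 levels of 6.55, 8.29 and 4.96. Its difference was 2.82 (SE 0.52), and experiments 1 and 3 were themselves 1.56 apart, although without overlap with experiment 2. The antiviral membrane protein gene Ifitm3 had control levels of 7.07, 9.11 and 5.62 and E47 levels of 7.09, 9.72 and 6.34, a difference of 2.89 (SE 0.38). Here too experiment 3 was the lowest, by 1.10 against experiment 1.

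The low markers were more even across experiments 1 and 3. Il9, the cytokine of Th9 cells, had control levels of 10.04, 6.95 and 10.06 and E47 levels of 9.13, 6.42 and 9.27. It was 7.66-fold lower in experiment 2 (difference -2.94, SE 0.10), without overlap. Pdpn, which encodes the mucin-like surface glycoprotein podoplanin, had control levels of 9.86, 7.02 and 10.19 and E47 levels of 9.87, 7.40 and 9.92. It was 6.72-fold lower (difference -2.75, SE 0.14), also without overlap. Foxp3, Gpr83, Il9 and Pdpn were called in all 18 alternative settings, but these genes helped to choose experiment 2, so their kept calls add no support. Sgk1 lost its call without E47 replicate 2, Ifitm3 without control replicate 2 and without E47 replicate 2. Itih5 lost it in 5 settings: without control replicate 2, without E47 replicate 2, without E47 replicate 3, on experiment means and with no construct term.

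**Figure D1:**
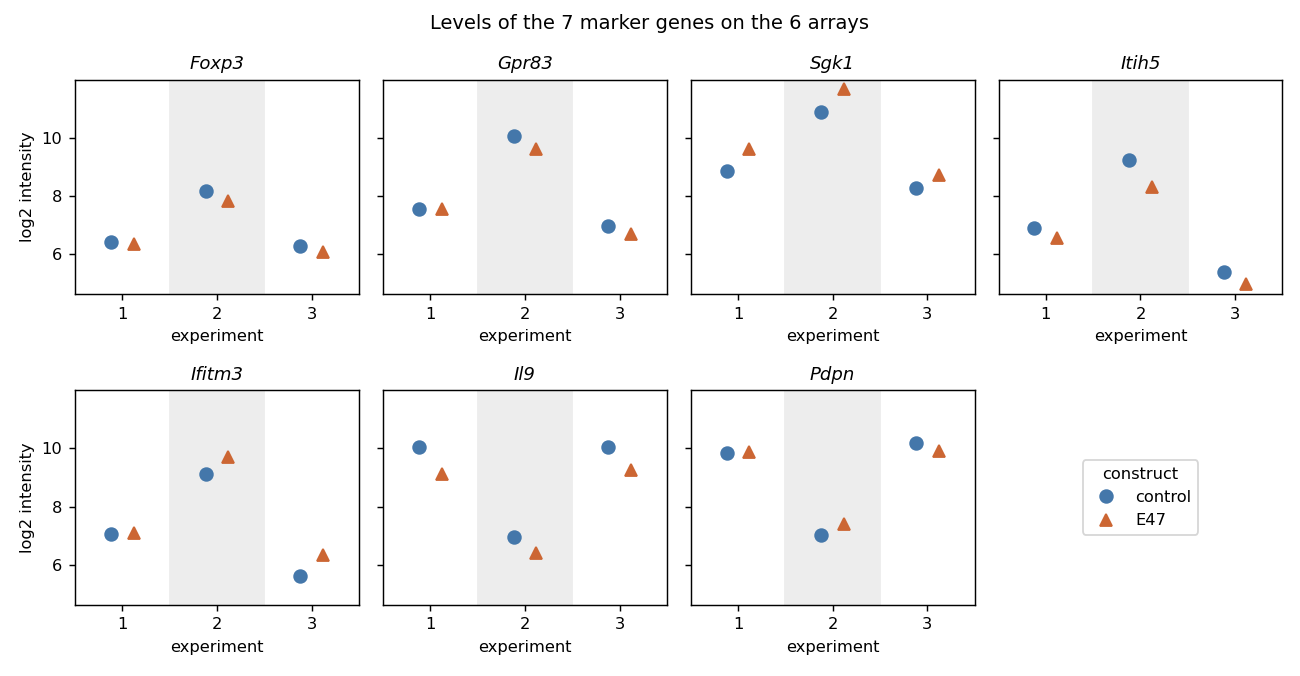
Log2 intensity of the 7 marker genes (vertical axis, 1 scale for all panels) on each of the 6 arrays by experiment (horizontal axis), with circles for control and triangles for E47. In experiment 2 (grey band) both points lie above the other 4 for Foxp3, Gpr83, Sgk1, Itih5 and Ifitm3 and below them for Il9 and Pdpn.

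Promoter sequences are shown for genes of this state that carry a motif of a pathway used in the culture or named in the lists. Each is the sequence before an annotated start in RefSeq on GRCm38.p6, written 5′ to 3′ on the gene's strand, and the capitals mark the match. For Foxp3 the window is the second of 2 annotated starts (chrX:7580233-7580482, plus strand) and the capitals match the STAT motif TTCNNNGAA, 139 bases before that start. The window of the first start, not shown, held no match to this motif. For Socs3 (chr11:117969367-117969616, minus strand) the match to the same motif begins 154 bases before the start. For Il9 (chr13:56482258-56482507, minus strand) the capitals match the AP-1 motif TGANTCA, 140 bases before the start.
Foxp3: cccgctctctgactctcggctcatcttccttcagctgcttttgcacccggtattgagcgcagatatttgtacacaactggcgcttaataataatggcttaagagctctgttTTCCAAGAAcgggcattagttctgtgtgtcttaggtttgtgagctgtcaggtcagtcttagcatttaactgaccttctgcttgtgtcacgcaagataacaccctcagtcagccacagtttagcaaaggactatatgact
Socs3: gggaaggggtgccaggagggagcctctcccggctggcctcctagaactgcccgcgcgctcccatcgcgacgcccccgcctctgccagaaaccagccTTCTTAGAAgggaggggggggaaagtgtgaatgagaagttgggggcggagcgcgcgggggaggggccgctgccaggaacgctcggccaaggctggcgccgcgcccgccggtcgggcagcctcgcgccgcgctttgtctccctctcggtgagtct
Il9: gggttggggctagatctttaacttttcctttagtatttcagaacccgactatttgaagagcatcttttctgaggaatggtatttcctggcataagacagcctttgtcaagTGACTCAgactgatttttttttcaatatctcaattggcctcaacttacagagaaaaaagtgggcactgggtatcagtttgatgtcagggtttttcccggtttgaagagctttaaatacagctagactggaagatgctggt
For Ifitm3 a stretch of 30 bases around an interferon response motif (GAAA, any 2 bases, GAAA) is shown, which begins 20 bases after the start (chr7:141010705-141010734, minus strand).
Ifitm3: aacttctgaGAAACCGAAActgccgcagaa

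Motifs were counted on both strands in windows from 250 bases before to 50 bases after each start, of which RefSeq gave 18109 for 14452 of the measured genes. The STAT motif was present in 13.7% of the 131 windows of genes higher by 2-fold or more, in 6.67% of the 60 windows of genes lower by 2-fold or more and in 7.21% of all windows. The AP-1 motif was present in 12.2%, 8.33% and 6.38% of them. The interferon response motif was in 3.82% of windows of the higher genes, 0 of the 60 of the lower genes and 3.03% of all. These shares are descriptions of short letter matches, and several windows can belong to 1 gene.

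Across the transcriptome, 808 genes (4.44% of 18193) were called. Of these, 410 (2.25%) were higher and 398 (2.19%) were lower in experiment 2, and 116 (0.638%) and 66 (0.363%) were so by 2-fold or more. Of the 808, 747 had both arrays of experiment 2 outside the range of the other 4. The remaining 61 overlapped, among them Cdh1, whose control and E47 arrays lay far apart. Both arrays of experiment 2 lay above the other 4 in 2016 genes (11.1%) and below them in 2834 (15.6%). Taking each experiment's mean as 1 value left 233 genes higher (1.28%) and 162 lower (0.89%), and 361 of the 808 were among them. The counts also rested on each array: 52 genes were higher and 33 lower without E47 replicate 2, and 118 and 59 without control replicate 2. Of the 105 called genes chosen for naming, 23 were called in every alternative setting in which they were tested (17 settings for Serpinb1a and Klra7, 18 for the rest), among them Klf2, Itga6, Ebi3, Ccr6 and Sh2d1a. A further 76 lost the call without at least 1 of the 2 arrays of experiment 2.

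The control pair of experiment 2 against 1 and 3 and the E47 pair are measured on different arrays. The differences in the control arrays and in the E47 arrays correlated across genes (r = 0.67, n = 18193 genes, which are not independent and share the pools of mice within an experiment). A call rests on the mean of these differences, which favours genes of the same sign with both constructs. Of the sum of squares of all genes about their means, 40.4% lay between experiment 2 and the others, 29.7% between the constructs and 12.3% between experiments 3 and 1. A difference of 1 or more in either direction was found for 207 genes in experiment 2 against 1 and 3 and for 12 genes in experiment 3 against 1. The choice of experiment 2 because it stood apart favours such an order, here and in the sum of squares. The median difference of all genes was -0.01 (interquartile range -0.12 to 0.10), and 47.4% of genes were positive.

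**Figure D2:**
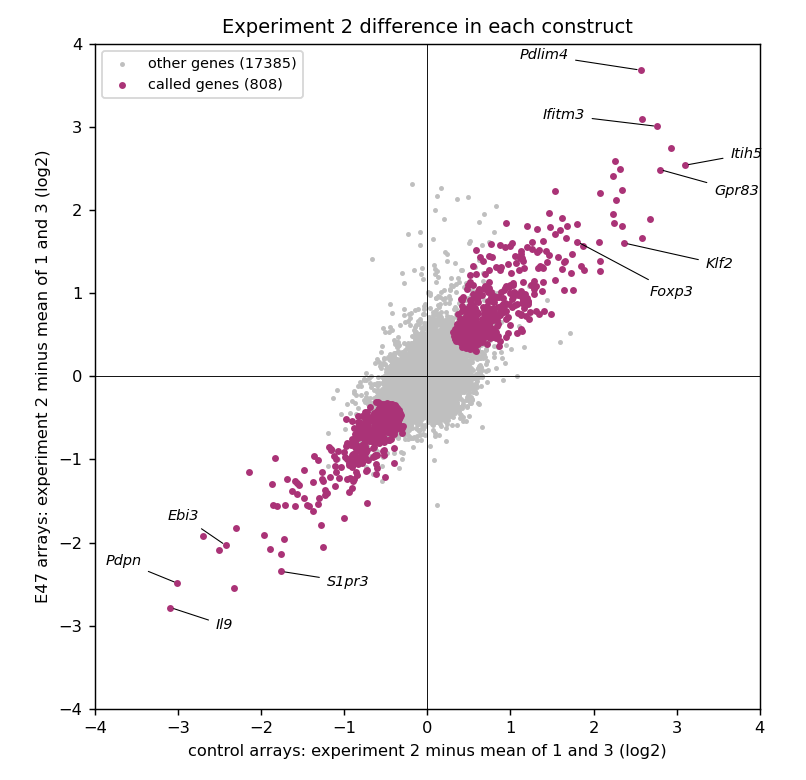
For each of 18193 genes, the log2 difference of experiment 2 from the mean of experiments 1 and 3 in the control arrays (horizontal axis) and in the E47 arrays (vertical axis), with the 808 called genes in purple and the rest in grey. The called genes were picked by the mean of both differences, which favours the same-sign quadrants, and r across all genes is 0.67.

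The largest positive differences are given with the levels behind them. Pdlim4, an actin-associated adaptor with PDZ and LIM domains, had control levels of 4.86, 7.66 and 5.33 and E47 levels of 5.23, 8.88 and 5.16, a difference of 3.13 (SE 0.25) and the largest of the called genes whose arrays did not overlap. The 4 arrays of experiments 1 and 3 lay within 0.5 of the median of all probe sets. Enah, which promotes the growth of actin filaments, had a difference of 2.43 (SE 0.11), and Myo6, an actin motor, one of 2.29 (SE 0.13). Enah rests on part of its probe sets, since its 6 gave differences of 0.06 to 2.43. The laminin receptor chain Itga6 had control levels of 8.80, 10.74 and 8.52 and E47 levels of 8.92, 11.11 and 8.88, high in experiment 2 without overlap (difference 2.14, SE 0.10). Its 2 probe sets gave 2.14 and 2.32.

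Drc1, a subunit of the dynein regulator of cilia, had a difference of 2.84 (SE 0.30), Tmcc3 of 2.32 (SE 0.15) and Nrep of 2.29 (SE 0.31). Hipk2, a nuclear kinase that acts on p53, had a difference of 2.19 (SE 0.16), but its 8 probe sets ranged from -0.12 to 2.19. Tmcc3 likewise ranged from 0.22 to 2.32 over 5 probe sets. Of the 116 genes higher by 2-fold or more, 16 had a mean level in experiments 1 and 3 under the median of all probe sets, and 24 were in the gene lists used here.

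After Il9 and Pdpn, the largest negative differences were those of Tnfrsf11b, Mpzl2, Cd5l and Ebi3. Ebi3, the chain shared by the cytokines IL-27 and IL-35, had control levels of 10.06, 7.75 and 10.29 and E47 levels of 9.56, 7.83 and 10.17. It was 4.69-fold lower in experiment 2, without overlap (difference -2.23, SE 0.18). Tnfrsf11b, which encodes osteoprotegerin, the soluble decoy receptor of RANKL, had a difference of -2.44 (SE 0.12), though its other probe set gave 0.00. Cd5l, a secreted scavenger receptor protein best known from macrophages, had a difference of -2.30 (SE 0.12). Mpzl2, an adhesion molecule, had one of -2.31 (SE 0.20).

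Lmna, which encodes the nuclear lamins A and C, had control levels of 10.04, 7.74 and 10.05 and E47 levels of 8.86, 7.22 and 9.23. It was below the other arrays in experiment 2 with either construct (difference -2.06, SE 0.15), and its 5 probe sets ranged from -2.06 to -0.03. The sphingosine 1-phosphate receptor gene S1pr3 had a difference of -2.05 (SE 0.19), the tryptophan-degrading enzyme gene Kynu one of -1.99 (SE 0.15) and Slc35d3 one of -1.95 (SE 0.22). The other probe sets of S1pr3 and Kynu reached only -0.10 and -0.22. Stfa3, a cysteine protease inhibitor of a family of near-identical copies that the array may not separate, had a difference of -1.94 (SE 0.09).

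The counts of each gene list can be set beside the shares over all genes, 2.25% called higher and 2.19% lower. The Treg signature split in 2 directions although Foxp3 was high. Of 30 measured members, 5 were called higher and 7 lower, and the median difference was 0.02 beside -0.01 for all genes. The counts were 2 and 4 without control replicate 2, and 2 and 2 without E47 replicate 2. Besides Foxp3 and Gpr83, the higher members were Izumo1r (folate receptor 4, difference 1.05), Ecm1 (0.98) and Itgb8 (0.55), the integrin chain that activates latent TGF-β. Itgb8 had a mean level of 3.44, under the median of all probe sets, and lost its call in 10 of 17 alternative settings. The lower members were Ebi3, Cd83 (-1.21), Il10 (-1.0), Penk (-0.95), Plagl1 (-0.77), Dusp4 (-0.63) and the inhibitory receptor gene Lag3 (-0.45). Several textbook Treg genes were not called. Il2ra, the IL-2 receptor α chain, had control levels of 11.25, 11.29 and 10.89 and E47 levels of 11.22, 10.93 and 10.62, overlapping between the groups. Ikzf2 had a difference of 0.02 and Ctla4 one of -0.36. Foxp3 and Gpr83 belong to the genes that chose experiment 2, so their place in this list adds nothing.

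TGF-β was given to every culture, and its signalling genes and targets were compared as a list. Of 32 measured members 5 were called higher and 0 lower, 24 were positive, and the median difference was 0.10. Without control replicate 2 there were 2 called higher and without E47 replicate 2 there were 0. Sgk1 was one of the 5, and it helped to choose experiment 2, so its place here adds nothing. Smad3, the receptor-activated Smad, had a difference of 0.79 (SE 0.14), with control levels of 7.55, 8.01 and 7.48 and E47 levels of 8.94, 10.10 and 9.07, so that experiment 2 was the highest within each construct. Its 3 probe sets ranged from -0.04 to 0.79, and it lost its call in 7 of 18 alternative settings. The type I activin receptor gene Acvr1b (0.65), Itgb8 and Ldlrad4 (0.43), a feedback inhibitor of Smads, were the others. Of these, Acvr1b lost its call in 9 of 18 settings. Furin, the protease that matures TGF-β, had a difference of -0.37 and was not called.

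Of 23 measured targets of IL-2 and STAT5, 5 were called higher and 1 lower (median 0.12). Without control replicate 2 these were 1 and 1, and without E47 replicate 2 they were 0 and 0 (median 0.05). Socs3, a feedback inhibitor of cytokine receptors whose promoter is printed above, had control levels of 7.93, 9.17 and 7.47 and E47 levels of 8.71, 10.56 and 8.47. Its groups did not overlap (difference 1.72, SE 0.17), and its 3 probe sets gave 1.51 to 1.88. The survival gene Bcl2 had a difference of 1.17 (SE 0.21), with all 5 probe sets between 0.91 and 1.41, and the repressor gene Bcl6 one of 0.88. Osm (0.52) and Nfil3 (0.44) were also higher. The kinase gene Pim2 was lower (-1.02, SE 0.12).

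**Figure D3:**
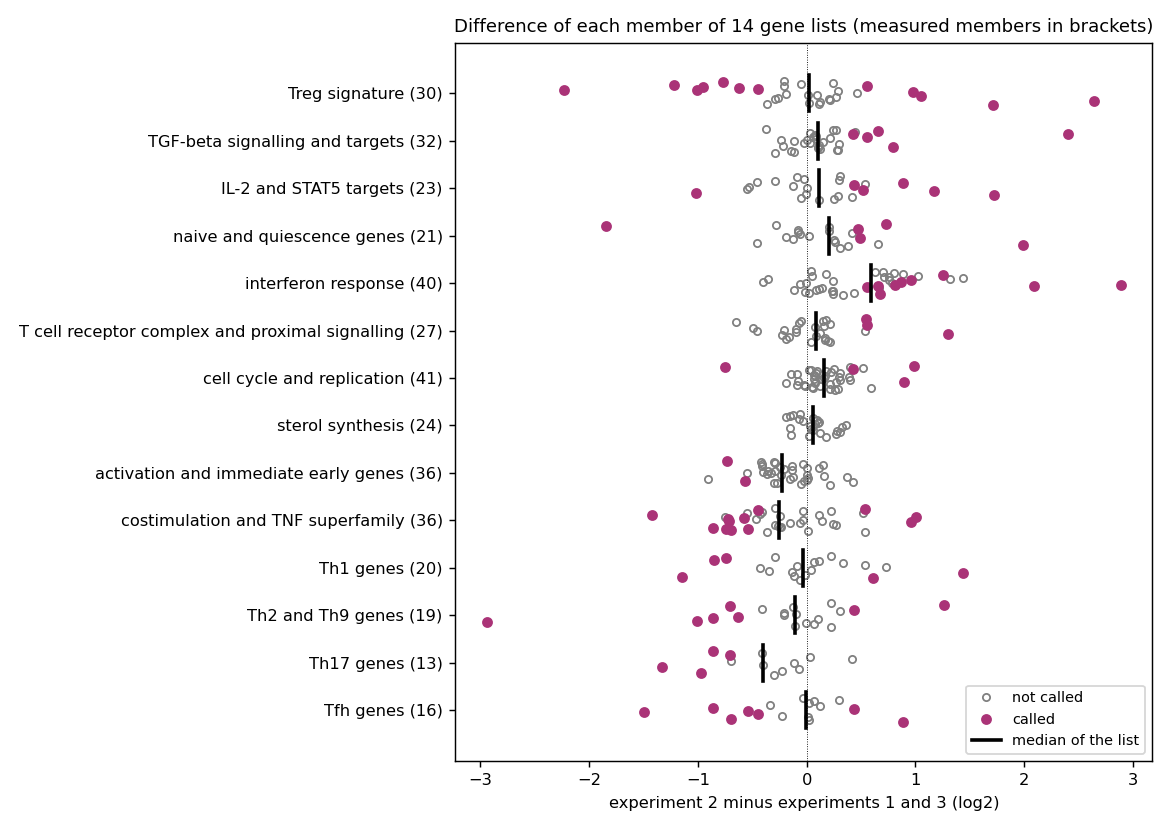
Log2 difference of experiment 2 from experiments 1 and 3 (horizontal axis) for each measured member of 14 gene lists, with called members filled, other members open and the list median as a bar. The interferon response list has the highest median (0.59) and the Th17 list the lowest (-0.40), and Treg genes lie on both sides of 0.

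The interferon response list had the highest median of the lists fixed for this description. Of 40 measured members 9 were called higher and 0 lower, and the median difference was 0.59. Of the 40, 34 were positive and 22 had both arrays of experiment 2 above the other 4 (11.1% of all genes). Without E47 replicate 2 the median was 0.53 with 0 called, and without control replicate 2 it was 0.58 with 1 called. Ifitm3, which helped to choose experiment 2, is in this list. Ifitm1, a relative of Ifitm3, had control levels of 7.98, 9.83 and 7.22 and E47 levels of 8.04, 9.64 and 7.34 (difference 2.09, SE 0.25). It was high in experiment 2 without overlap. Zbp1, a sensor of Z-form nucleic acids, had a difference of 1.25 (SE 0.17) and Gbp3, a guanylate-binding protein gene, one of 0.96 (SE 0.14). The others called were Ifi27l2a (0.87), Ifitm2 (0.81), Ifit2 (0.67), Stat2 (0.66) and Irf9 (0.55), of which the last 2 encode partners in the transcription factor that type I interferon activates. Ifitm genes are close relatives, and the array may not fully separate them.

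Rtp4 and Xaf1, with differences of 1.44 (SE 0.36) and 1.32 (SE 0.38), were not called. This list also ordered the other experiments: its median difference of experiment 3 from experiment 1 was -0.33, and its members' median deviation from their own means was 0.04 and -0.03 in experiment 1, 0.29 and 0.34 in experiment 2 and -0.30 and -0.34 in experiment 3 (control and E47).

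**Figure D4:**
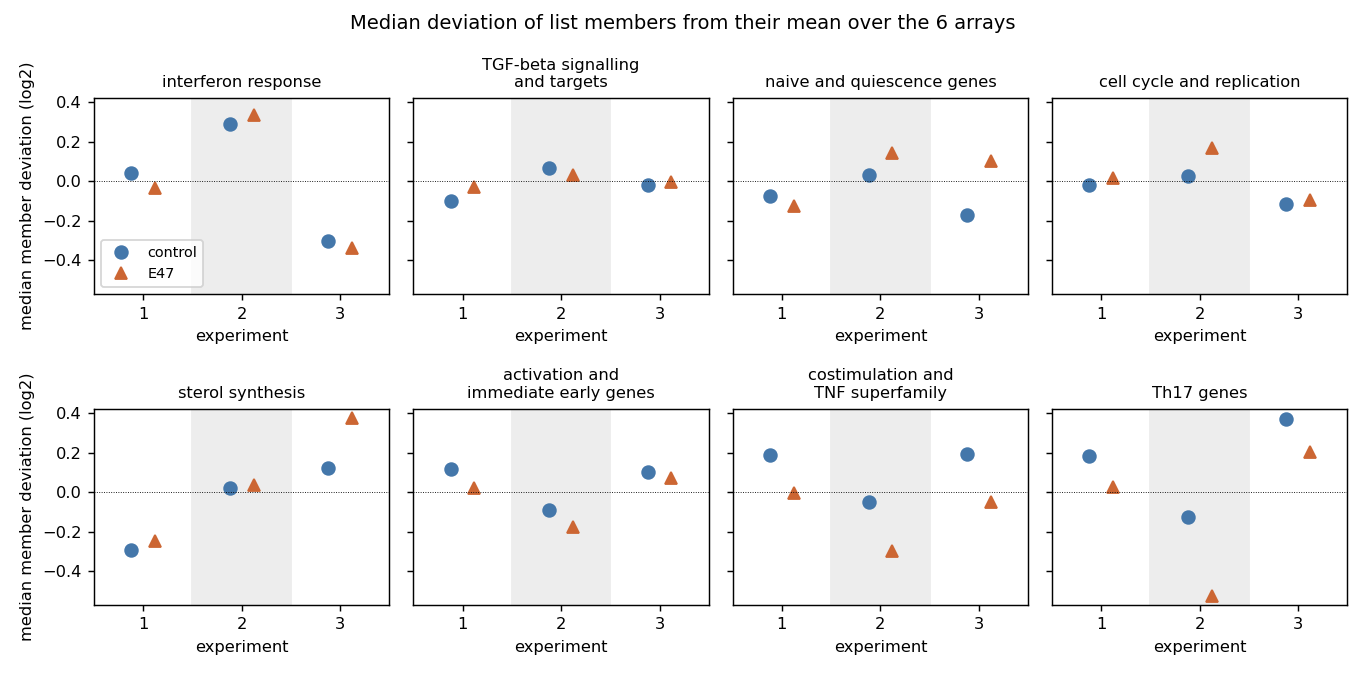
Median deviation of list members from their own mean over the 6 arrays (vertical axis, log2) by experiment (horizontal axis) for 8 lists, with circles for control and triangles for E47. Interferon genes are highest in experiment 2 and lowest in experiment 3, sterol synthesis genes run from experiment 1 up to experiment 3, and Th17 genes are lowest in experiment 2.

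Naive and quiescent T cells keep certain transcription factors high, and of 21 such genes measured 4 were called higher and 1 lower (median difference 0.21). Leaving out either array of experiment 2 left 1 higher and 1 lower. Klf2, the factor that maintains lymph node homing receptors, had control levels of 6.43, 8.68 and 6.19 and E47 levels of 7.32, 8.96 and 7.39. It was 3.96-fold higher in experiment 2 (difference 1.99, SE 0.17), with no overlap. Ets1 (0.73), Foxp1 (0.50) and Pdcd4 (0.47) were also higher, with all 4 probe sets of Ets1 and all 8 of Foxp1 positive. Foxp1 lost its call in 9 of 18 alternative settings. Dapl1 was lower, by a difference of -1.84 (SE 0.16). Il7r, the IL-7 receptor chain of resting T cells, had a difference of -0.46 and was not called.

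Genes induced by antigen receptor stimulation had more negative than positive differences. Of 36 measured activation and immediate early genes 0 were called higher and 2 lower, and the median difference was -0.22. Of the 36, 26 were negative and 12 had both arrays of experiment 2 below the other 4 (15.6% of all genes). Leaving out either array of experiment 2 left 0 called. The called members were Nfkbid (-0.73), a nuclear IκB protein gene, and Junb (-0.57), an AP-1 subunit. Egr3 had a difference of -0.91 (SE 0.25) and was not called, and its 2 probe sets had opposite signs. Within the receptor complex and its proximal signalling, 3 of 27 members were higher and 0 lower (median 0.09), with 1 higher without control replicate 2 and 0 without E47 replicate 2. These were the kinase gene Txk (1.30, SE 0.16), Rasgrp1 (0.56) and the adaptor gene Skap1 (0.54). Rasgrp1 and Skap1 had a mixed sign among their probe sets, and each lost its call in 9 of 18 alternative settings.

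Costimulation and TNF superfamily genes had 3 of 36 members called higher and 9 lower, and a median of -0.25. Without E47 replicate 2 the median was -0.24, without control replicate 2 it was -0.28, and 0 were called in either. Cd70, the ligand of CD27, had control levels of 8.16, 6.82 and 8.55 and E47 levels of 7.07, 6.03 and 7.61, with experiment 2 below the other 4 arrays (difference -1.42, SE 0.18). Its receptor gene Cd27 was higher (0.96, SE 0.19). The CD28 ligand genes Cd86 (-0.86) and Cd80 (-0.74), the TNF ligand genes Tnfsf8 (-0.72) and Tnfsf9 (-0.58), Tnfrsf25 (-0.71) and the inhibitory receptor genes Pdcd1 (-0.69), Btla (-0.54) and Lag3 (-0.45) were lower. Tnfsf10, which encodes TRAIL, was higher (1.00, SE 0.19), as was Cd160 (0.53).

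Of the helper lineages, Th17 genes had the lowest median. Of 13 measured members 0 were called higher and 4 lower, with a median difference of -0.40. The lower count was 1 without E47 replicate 2 and 3 without control replicate 2. Ccr6, the chemokine receptor of Th17 cells, had control levels of 11.56, 10.30 and 11.81 and E47 levels of 11.38, 10.16 and 11.47, below the other arrays throughout experiment 2 (difference -1.32, SE 0.10). Il17a had control levels of 8.09, 7.18 and 8.17 and E47 levels of 7.60, 6.67 and 7.75, also without overlap (difference -0.97, SE 0.09). The transcription factor genes Maf (-0.86) and Batf (-0.70), which Th2, Th17 and follicular helper cells share, were the others. Il17f, Il22 and Il23r were not measured under the rule of 1 symbol per probe set.

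Th2 and Th9 genes had 2 of 19 members called higher and 5 lower (median -0.10). These were 1 and 3 without control replicate 2, and 0 and 1 without E47 replicate 2. Il9 helped to choose experiment 2. Besides Il9, Maf and Batf, Il10 and the chemokine receptor gene Ccr4 (-0.63) were lower. Il3, a growth factor of myeloid progenitors, was higher (1.27, SE 0.13), with control levels of 8.54, 9.83 and 8.89 and E47 levels of 10.53, 12.03 and 10.69, so experiment 2 was highest within each construct. Of 16 follicular helper genes 2 were called higher and 5 lower. In this list 8 members were positive and 8 negative, and the median was -0.01, beside -0.01 for all genes. Leaving out either array of experiment 2 left fewer called, with medians of -0.10 (control replicate 2) and -0.09 (E47 replicate 2). The highest difference was that of Bcl6 (0.88), which was called. The lowest was that of Sh2d1a, the adaptor SAP of SLAM receptors (-1.49, SE 0.09). Its control levels were 11.03, 9.48 and 11.06 and its E47 levels 11.06, 9.72 and 11.22.

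Th1 genes went both ways, with 2 of 20 higher and 3 lower (median -0.04). These were 0 and 1 without control replicate 2, and 0 and 0 without E47 replicate 2. Il18r1, an IL-18 receptor chain, had control levels of 9.30, 10.29 and 8.77 and E47 levels of 8.56, 9.83 and 7.87 (difference 1.44, SE 0.22), and Ifng was higher by 0.61. The experiment 2 arrays of Il18r1 lay above the other 4. Il12rb1, a receptor chain for IL-12 and IL-23, was lower (-1.14, SE 0.11), as were the chemokine genes Ccl3 (-0.85) and Ccl4 (-0.74). Among other chemokines Xcl1 (1.43, SE 0.11) and Ccl1 (0.91) were higher. Among chemokine and migration receptors Gpr15 (0.92) and Cx3cr1 (0.82) were higher and Ccr6, Ccr4 and Ptger4 (-0.55) lower, and the 2 probe sets of Cx3cr1 had opposite signs. Ifngr1, a chain of the interferon-γ receptor, was higher (0.92, SE 0.09).

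The list of adhesion and matrix genes had 8 of 41 members called higher and 3 lower (median 0.06). Without control replicate 2 the counts were 3 and 1, and without E47 replicate 2 they were 2 and 1. Itih5 and Pdpn helped to choose experiment 2, so their calls add nothing here. Next to Itih5, Itga6, Ecm1 and Itgb8, the integrin β chain genes Itgb7 (0.93) and Itgb3 (0.72) were higher. So were the epithelial adhesion genes Cdh1 (2.84) and Epcam (1.11), though the other probe set of Epcam gave 0.10. Pdpn, the integrin chain gene Itgal (-0.48) and its ligand gene Icam1 (-0.43) were lower. Among lineage transcription factors 5 of 33 were higher and 2 lower (median 0.02). Fewer were called without either array of experiment 2, with medians of 0.02 (without control replicate 2) and -0.02 (without E47 replicate 2). Foxp3 is 1 of the 5 and helped to choose experiment 2, so its call adds nothing here. Gfi1 (1.67, SE 0.14) and Ikzf3 (1.08, SE 0.12) followed Foxp3 in size.

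Cell cycle and replication genes had 33 of 41 members positive (47.4% of all genes) and a median of 0.16, with 3 called higher and 1 lower. The inhibitor gene Cdkn2c (0.98, SE 0.12), E2f2 (0.89) and the mitotic motor gene Kif11 (0.42) were higher. E2f2 lost its call in 8 and Kif11 in 11 of 18 alternative settings. Cdkn1a, which encodes the cyclin-dependent kinase inhibitor p21, was lower (-0.75, SE 0.09), with control levels of 12.14, 11.25 and 12.13 and E47 levels of 12.18, 11.52 and 12.11. The apoptosis and survival list had 2 of 25 members higher (Bcl2 and Tnfsf10) and 5 lower, the last being Cdkn1a, Ccng1 (-0.58), Bid (-0.52), Bcl2l1 (-0.46) and Mdm2 (-0.39). Leaving out either array of experiment 2 left 0 called in this list and 0 in the cell cycle list.

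Metabolic and stress genes were compared in 4 lists. Of 34 glycolysis and hypoxia genes, Aldoc (0.80), Mxi1 (0.68) and Pdk1 (0.47) were higher and Eno2 (-0.91) was lower, with a median of -0.05. Eno2 lost its call with the replicate block and in 7 other settings, and Pdk1 in 11 of 18 settings. Leaving out either array of experiment 2 left 0 of these genes called. Of 29 genes of the integrated stress and unfolded protein responses, 0 were higher and 2 lower. These were Nupr1 (-1.35, SE 0.16) and Sesn2 (-0.52, with its call lost in 10 of 18 settings). Without E47 replicate 2 there were 0 and without control replicate 2 there was 1. The 2 heat shock genes called, Hspa1b (-1.08) and Hspa1a (-0.94), are near-identical copies, and leaving out either array of experiment 2 left 0 called. Of 24 sterol synthesis genes 0 were called in either direction, and the list differed between experiments 3 and 1 (median 0.50) more than between experiment 2 and both (median 0.06). The list of 17 granzyme and serpin genes had 0 called. The list of 27 lysosomal, cathepsin and protease genes, which holds the serpin gene Serpinb1a, had that 1 called (1.21, SE 0.10), and 3 without control replicate 2. In the limma fit with all 3 experiments as terms, experiment 3 differed from experiment 1 in 0 genes upwards and 1 downwards (0.0055%), the metallothionein gene Mt1 (difference -2.12, SE 0.13, adjusted p = 0.0479). At an unadjusted p under 0.05 there were 1468 genes (8.07%).

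Markers of other cells were examined, in cells that had been sorted as CD4+Thy1.1+ before the last 6 hours. In bulk RNA, fewer cells of a type and less RNA per cell cannot be told apart. Of 6 CD8 T cell markers 2 were called higher and all 6 were positive (median 0.56), and the mean level of the list was 6.55 and 6.79 in experiment 2 and 5.84 to 6.17 on the other arrays. Cd8a had control levels of 6.21, 6.68 and 5.79 and E47 levels of 6.21, 7.17 and 6.02 (difference 0.87, SE 0.15), and Cd8b1 had a difference of 0.39 and was not called. Klrd1, a receptor chain of NK and CD8 T cells, had control levels of 7.13, 8.79 and 6.68 and E47 levels of 7.21, 8.35 and 6.92 (difference 1.58, SE 0.18). Klrc1 was higher too (0.77) and Kit lower (-0.81), which were the other called members of the 10 NK and innate lymphoid markers. The mean level of that list was 5.26 and 5.28 in experiment 2 and 4.94 to 5.07 on the other arrays. Of the CD8 list 0 were called without control replicate 2 and 1 without E47 replicate 2, and of the NK list 0 and 1. The part of CD8 T, NK and innate lymphoid cells in the interferon, Klr and Il18r1 differences was not tested.

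Of 10 B cell markers, Ms4a1 was called higher (0.68) with a level of 5.51 at most, and 6 of the 10 had mean levels under the median of all probe sets. Of 12 dendritic cell markers, H2-Aa was higher (1.31, SE 0.15) and Batf3 (-0.63) and Cd74 (-0.55) lower, and the 4 probe sets of H2-Aa ranged from 0.02 to 1.31. Of 16 stromal and endothelial markers, Pecam1 was higher (0.73) and Pdpn lower. Pdpn helped to choose experiment 2, so its call adds nothing here, in any setting. The mean levels on the arrays of experiment 2 and on the others were 4.75 to 4.88 and 4.58 to 4.65 for the B cell list, 5.45 to 5.57 and 5.40 to 5.58 for the dendritic cell list, and 5.17 to 5.26 and 5.16 to 5.31 for the stromal list. The median differences were 0.21 for the B cell list, 0.02 for the dendritic cell list and 0.07 for the stromal list. Without E47 replicate 2 they were 0.29, 0.12 and 0.24, and fewer members of each list were called. The part of these cells in the results was not tested. No member was called among 14 macrophage, 9 neutrophil, 8 mast cell, 6 plasma cell, 5 erythroid and 2 γδ T cell markers, and none of the 7 CD4 T cell markers was either.

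Some genes differed both by construct and by experiment. Cdh1, E-cadherin, had control levels of 2.94, 5.67 and 3.22 and E47 levels of 6.52, 9.55 and 6.37. Experiment 2 was highest within each construct, and the groups overlap only because E47 arrays lay far above control arrays. The difference between E47 and control was 3.58, 3.88 and 3.14 in experiments 1 to 3. Gfi1, a repressor of the zinc finger class, had control levels of 5.64, 7.26 and 5.54 and E47 levels of 6.80, 8.73 and 7.33. Nav1 (1.64, SE 0.15) and Epcam (on the brighter of its 2 probe sets) showed the same layout, and these 2 genes were chosen after their values were seen. Il10 was the opposite: it was higher with E47 by 2.27, 2.30 and 2.57 and was lowest in experiment 2 within each construct, with control levels of 6.24, 5.27 and 6.18 and E47 levels of 8.51, 7.56 and 8.75.

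**Figure D5:**
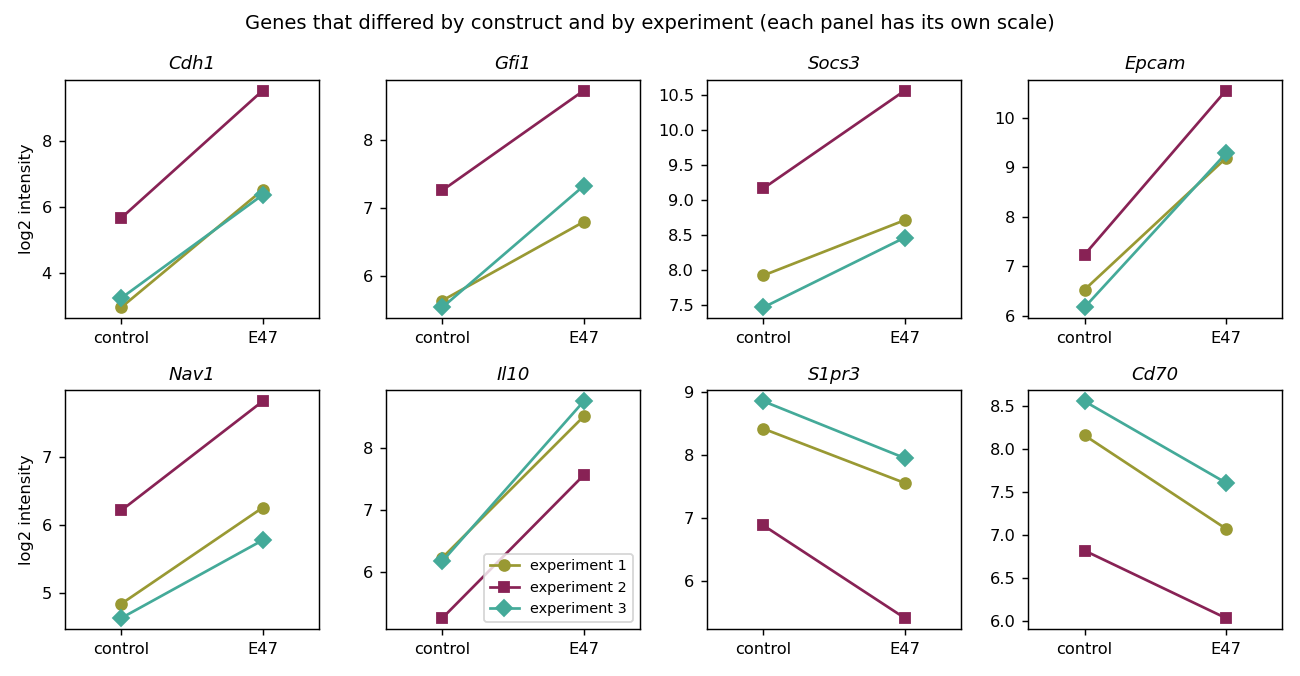
Log2 intensity (vertical axis, 1 scale per panel) in control and E47 cultures, joined by a line within each experiment, for 8 genes. For Cdh1, Gfi1, Socs3, Epcam and Nav1 the line of experiment 2 lies above the others, and for Il10, S1pr3 and Cd70 it lies below them.

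Whether E47 acted differently in experiment 2 was tested on the within-experiment differences, which do not use the contrast that chose experiment 2. It set the 1 difference of experiment 2 against the 2 of the other experiments, so experiment 2 had no spread of its own and was assumed to vary like the others. With limma and Benjamini-Hochberg adjustment 0 genes were called in either direction (0%). At an unadjusted p under 0.05 there were 279 genes (1.53%) where E47 minus control was higher and 350 (1.92%) where it was lower in experiment 2. A count of 0 in this design does not show that E47 acted alike in all experiments. The lowest adjusted p was 0.291, for Rhpn2, Prodh and Cbr3, and it was between 0.0651 and 0.293 in the alternatives.

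Rhpn2 had control levels of 2.75, 2.58 and 2.77 and E47 levels of 3.83, 6.31 and 4.18, an excess of 2.50 (SE 0.22) in experiment 2. Prodh, proline dehydrogenase, had control levels of 5.55, 4.91 and 5.60 and E47 levels of 5.31, 6.76 and 5.39, an excess of 2.08 (SE 0.19). Cbr3, a carbonyl reductase gene, had control levels of 5.47, 5.53 and 5.36 and E47 levels of 5.74, 7.91 and 5.74, an excess of 2.06 (SE 0.20). In each of these the E47 array of experiment 2 was the highest of the 6. In the other direction Wnt10a, a secreted Wnt ligand, was higher with E47 by 3.31, 1.97 and 3.95 in experiments 1 to 3, a difference of -1.67 (SE 0.30, limma adjusted p = 0.999). For Foxp3, E47 minus control in experiment 2 minus that in the others was -0.18 (limma adjusted p = 0.999).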

How the data were processed

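RNA of 6 mouse T cell samples was hybridised to Affymetrix mouse expression arrays. The values deposited by the authors are intensities of probe sets, made with RMA (no version named) per the submitters' processing notes. The deposited values were linear, so log2 was taken first. Of 45101 probe sets 34958 had 1 symbol in the platform annotation, 932 several and 9211 were not listed and are unnamed here. Of those with 1 symbol, 34754 matched RefSeq (GRCm38.p6) by Entrez number. Each gene was its probe set with the highest mean (18193 genes), with no filter on dim ones. Groups and experiment numbers came from titles.

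limma 3.58.1 in R 4.3.3 (lmFit, eBayes, two-sided, Benjamini-Hochberg, threshold 0.05) was fitted with experiment 2 and construct as terms. The difference of E47 effects was fitted on the 3 within-experiment differences, and experiment 3 against 1 with all experiments as terms. The fits were run on simulated data with planted differences and noise independent between arrays. This could not show how they handle noise shared within an experiment. Numbers pair the samples: the design text gives 3 independent experiments, and deviations of same-numbered arrays correlated at 0.28, 0.67 and 0.43. Control replicate 3 with E47 replicate 1 gave 0.25, and control replicate 1 with E47 replicate 3 gave 0.18. Unlike-numbered pairs that held an array of experiment 2 gave -0.52 to -0.34. Alternatives were replicate blocks, experiment means, no construct term, other scalings, probe set choices, an added 16 before log2 and left-out arrays. The number of arrays limits the precision, since arrays carry no read depth.

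The members, the gene lists and the tests were chosen with earlier results of these data known. Named genes were the 7 markers, Il2ra, Ctla4, Ikzf2, Cd4, Cd3e, Thy1, Tcf3 and Xist, the 12 largest differences in each direction among called genes whose arrays did not overlap, up to 4 called and 2 other members of each list and the 5 lowest p in each direction for the difference of E47 effects. Clone names were passed over in the largest differences. Other called list members and genes named beside small counts were chosen after their values were seen.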

Additional observations from a re-analysis of the deposited data

Results flagged for a closer look

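Among 202 named genes, 8 had 1 array far from the other 3 of the 4 arrays of experiments 1 and 3, by Dixon's gap ratio. Chance flags about 1 in 20 such groups. Control replicate 1 stood high for Malt1 (10.59), a signalling adaptor of the antigen receptor, and for the Y-linked Uty (3.23), and low for H2-Aa (4.92). Control replicate 3 stood high for Batf3 (7.37). E47 replicate 1 stood low for Dapl1 (8.19). E47 replicate 3 stood low for Ccl20 (9.51), a chemokine that binds CCR6, and high for Sh2d1a (11.22) and Cma1 (4.62). For Dapl1, Sh2d1a, H2-Aa and Batf3, the called ones, experiment 2 lay outside the range of all 4 arrays.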

How the results depend on the processing

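Experiment means gave 233 genes higher and 162 lower, and dropping the construct term gave 179 and 152, with 69 and 38 by 2-fold or more. The mean of all probe sets gave 73 higher by 2-fold or more, adding 16 to the intensity gave 613 lower, and eBayes with trend and robust options gave 725 lower. The cause of these shifts was not tested. With the replicate block, 475 genes were higher and 475 lower, and 124 and 69 by 2-fold or more. Median centring gave 367 and 480, and quantile normalization 455 and 398. Leaving out arrays or experiments gave 52 to 550 higher and 33 to 482 lower, and 49 to 161 and 31 to 89 by 2-fold or more. The higher count moved by over 1.5 times without control replicate 3 (255), E47 replicate 1 (271), E47 replicate 3 (215) or replicate 3 of both (149), and the lower count without control replicate 1 (255), control replicate 3 (246), E47 replicate 3 (192) or replicate 3 of both (128). Experiment 3 differed from experiment 1 in 2 genes downwards after quantile normalization and in 2 among genes above the median level. Without the replicate block the difference of E47 effects again had 0 calls. Where 1 array of experiment 2 was left, it was assumed to vary like the rest.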

Other observations

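The lists here were chosen after values were seen and are given as description. Targets of FOXO factors, which are active when antigen receptor and PI3K signalling are low, had 10 of 20 measured members called higher and 0 lower, with a median difference of 0.57 beside -0.01 for all genes. The count was 5 without E47 replicate 2 and 2 without control replicate 2, with medians of 0.46 and 0.61. The called members were Klf2, Foxp3, Trib2 (1.39, SE 0.20), Pik3ip1 (1.12, SE 0.17), Tsc22d3 (0.97), Bcl6, Sesn1 (0.87), Ccng2 (0.72), Sesn3 (0.63) and the insulin receptor substrate gene Irs2 (0.51). Of the 20 measured members 4 were negative, the lowest being Il7r (-0.46), which was not called. Pik3ip1, an inhibitor of PI3K, had control levels of 5.98, 7.44 and 5.91 and E47 levels of 6.12, 7.02 and 6.43, with experiment 2 above the other 4 arrays. Trib2 rests on part of its probe sets, since its 3 gave differences of 0.05 to 1.39. Foxp3 is among the genes that chose experiment 2.

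Targets of p53 were mostly negative: 1 of 23 was called higher and 9 lower, and the median difference was -0.39. Of the 23, 15 had both arrays of experiment 2 below the other 4 (15.6% of all genes). Without E47 replicate 2 and without control replicate 2 the median was -0.46 and -0.38, and 0 were called lower. Phlda3 (-0.76, SE 0.09), Cdkn1a, Zmat3 (-0.74, SE 0.10), Ccng1, Psrc1 (-0.57), Polk (-0.56), Sesn2, Aen (-0.49) and Mdm2 were lower. Phlda3, a repressor of Akt, had control levels of 9.39, 8.49 and 9.18 and E47 levels of 9.23, 8.47 and 9.15. Sesn1, which also counts as a FOXO target, was the member called higher, with control levels of 8.83, 9.81 and 8.89 and E47 levels of 8.83, 9.60 and 8.80.

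Of 10 measured immunity-related GTPase and guanylate-binding protein genes, which interferons induce, all were positive (median 0.75), and Gbp7 (1.20, SE 0.17), Irgm2 (0.99, SE 0.12) and Gbp3 were called. Leaving out E47 replicate 2 or control replicate 2 left 0 called, with medians of 0.90 and 0.69. Of 18 Klra to Klrk receptor genes Klra7 (1.68, SE 0.10), Klrd1 and Klrc1 were called higher (1 gene without control replicate 2 and 2 without E47 replicate 2). The other probe set of Klra7 gave a difference of 0.02. Of the 18 genes 14 had mean levels under the median of all probe sets, and Klra genes have near-identical copies. Of 8 Gimap genes, GTPases of lymphocytes, Gimap7 was called higher (1.54, SE 0.20). Metallothioneins, which bind zinc, set experiment 1 apart instead: Mt1 had control levels of 9.59, 7.47 and 7.33 and E47 levels of 9.01, 7.39 and 7.03, and Mt2 had control levels of 9.18, 7.29 and 7.69 and E47 levels of 8.84, 7.21 and 7.34. Mt2 was not called between experiments 3 and 1 (difference -1.49, SE 0.11, limma adjusted p = 0.0592).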
